A study of Homo sapiens with 6 samples.

Results

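C-to-U edits in the mRNAs of cyclin, cyclin-dependent kinase (CDK) and CDC genes were examined in long reads of HEK293T cells, a human embryonic kidney line whose cell line label reads HEK293XT. Members were the protein-coding genes named CCN plus a letter, CDK, CDC or CDKN plus a digit, without the CDC42 family, that had an edit in any library. This gave 61 of 7684 genes, 81 of 9831 isoforms and 8142 of 837106 listed pairs of isoform and position. By the paper's methods, INSCRIBE cells and their controls are fixed first, and the RNA is then edited in place overnight. RBFOX2-INSCRIBE cells (replicates 1 and 2) received a rabbit antibody against RBFOX2 and the purified fusion protein Apo1-Nb, in which the cytidine deaminase APOBEC1 is joined to a nanobody against rabbit IgG. Enzyme-only cells (titled replicates 2 and 3) received Apo1-Nb without the antibody, and buffer-only cells (replicates 1 and 2) received neither. All 6 libraries came from the same cell line and were sequenced on the PacBio platform. The methods state 1 SMRT Cell per sample, but name only RBFOX2-INSCRIBE and enzyme-only samples there. The methods state that INSCRIBE replicates were separate slides of cells, so the p-values below measure the spread between slides of 1 line. The deposited values are edited fractions of reads with no read numbers, so depth is unknown, and the label of the cell line was not checked against expression here.

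Cyclins are regulatory subunits that switch on CDKs, and their periodic synthesis and destruction drives the cell cycle. CDK inhibitors hold these kinases in check, CDC25 phosphatases release them, and the anaphase-promoting complex marks mitotic cyclins for degradation. Some family members act elsewhere: cyclins K, L and T and CDK7, CDK8, CDK9, CDK12 and CDK13 work with RNA polymerase II or in splicing. RBFOX2 is an RNA-binding protein that recognises UGCAUG, so an edited C beside that hexamer is the kind of site the antibody-directed enzyme was designed to mark.

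The sites below were edited in both RBFOX2-INSCRIBE libraries, in none of the 4 control libraries, and had UGCAUG within 50 nt. They are shown because they carry the edit and the motif together. They are the 6 such sites with the highest mean edited fraction whose window of 29 nt holds both, printed 5′ to 3′ as RNA from hg38 with the edited C and UGCAUG in capitals.
CDC5L, 3′ UTR, chr6:44448715-44448743, + strand: uuuuauUGCAUGuuuuguuauCugaaaug
CCND1, 3′ UTR, chr11:69651847-69651875, + strand: ugcucauaUGCAUGuagucaCuuuauaag
CCNL2, retained-intron isoform, chr1:1391271-1391299, − strand: ugaguuUGCAUGuuucucugcaCuaugga
CDC73, 3′ UTR, chr1:193252847-193252875, + strand: aguaaauaCuuacaUGCAUGaaugaauaa
CCNL2, retained-intron isoform, chr1:1391272-1391300, − strand: uugaguuUGCAUGuuucucugCacuaugg
CDC27, coding sequence, chr17:47137148-47137176, − strand: ucaauCcuagacauuauaaUGCAUGguaa
The CDC5L site, 10 nt 3′ of the hexamer, was edited in 5.77% and 8% of reads, and the CCND1 site, 7 nt 3′ of it, in 3.45% and 6.25%. The first CCNL2 site, 11 nt 3′, was edited in 5.88% and 1.89% of reads, and its neighbour, 9 nt 3′, in 1.52% and 1.89%. A position listed for several isoforms of a gene took the highest of their fractions. The CCNL2 fractions may therefore come from another isoform than the retained-intron one named. The CDC73 site, 6 nt 5′ of the hexamer, was edited in 1.87% and 2.92%, and the CDC27 site, 14 nt 5′, in 0.709% and 1.71%. Since the sites were selected for their presence in these 2 libraries, the fractions are a description. Ranking by fraction can favour positions covered by few reads. The paper describes fractions inflated by low coverage in its short-read libraries. No read numbers are given for these sites, so each fraction may rest on very few reads.

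More Cs of the cyclin, CDK and CDC mRNAs were edited with the antibody than without it. Counting each exonic C on the strand of its isoform at most 1 time per library, 2098 and 2115 distinct Cs were edited in RBFOX2-INSCRIBE, 832 and 1563 in the enzyme-only control, and 666 and 620 in the buffer-only control. Both RBFOX2-INSCRIBE libraries lay above all others, but the enzyme-only libraries differed from each other by more than the enzyme-only replicate 2 differed from buffer-only. The RBFOX2-INSCRIBE mean was 1.76 times that of enzyme-only and 3.28 times that of buffer-only (two-sided exact permutation p = 0.33, the smallest that 2 against 2 libraries can give). Leaving out enzyme-only replicate 3 gave a ratio to enzyme-only of 2.53, and leaving out its replicate 2 gave 1.35.

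As a share of the 45682 exonic Cs of these genes, termed editsC, this was 4.59% and 4.63% in RBFOX2-INSCRIBE, 1.82% and 3.42% in enzyme-only and 1.46% and 1.36% in buffer-only. In the other protein-coding genes, editsC was 2.77% and 2.84%, 1.19% and 2.12%, and 1.00% and 0.983%, respectively. The cyclin, CDK and CDC genes thus had the higher value in all 6 libraries, buffer-only included, and the difference between the gene groups was not tested. The median edited fraction was between 0.5% and 0.735% in every library. A gene with more reads can list more edited Cs, and more reads cannot be told apart from more editing per read in these values.

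The base before the edited C separated the libraries with enzyme from those without. APOBEC1 prefers a C that follows A or U. In the cyclin, CDK and CDC genes, 77.4% and 77.9% of edited Cs followed A or U in RBFOX2-INSCRIBE, 66.7% and 73.1% in enzyme-only, and 44.9% and 43.4% in buffer-only. Of all exonic Cs of these genes, 48.0% follow A or U, so the buffer-only libraries were below that share and both enzyme groups were above it (exact permutation p = 0.33 for each pair of groups). Sites on the opposite strand, which were left out of all counts, numbered between 28 and 40 per library and overlapped between the groups.

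**Figure D1:**
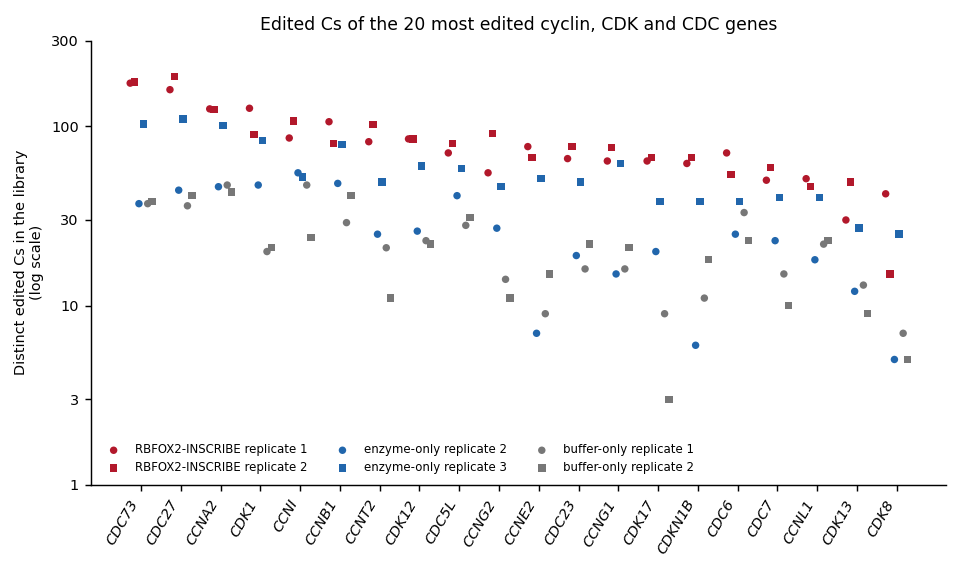
Distinct edited Cs (y axis, log scale) in each of the 6 libraries for the 20 cyclin, CDK and CDC genes with the most edited Cs on average in RBFOX2-INSCRIBE. Colours give the group and symbols the replicate; CDC73 had 174 and 177 edited Cs in RBFOX2-INSCRIBE, 37 and 103 in enzyme-only, and 37 and 38 in buffer-only.

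Against buffer-only, 30 of the 45 tested members had more edited Cs in RBFOX2-INSCRIBE (66.7%; limma, adjusted p under 0.05) and 0 had fewer, where 61.1% of all 4802 tested genes had more and 0.0625% had fewer. The median log2 difference was 1.499 for the members and 1.54 for all genes, and 38 members had both RBFOX2-INSCRIBE libraries above both buffer-only libraries (84.4%, against 80.7% of all genes). The members' share and median were thus near those of all genes. When libraries were scaled to the same total of edited Cs, the median of all genes moved to 0.01 and that of the members to −0.05, and 0 members passed (9 at an unadjusted p under 0.05). On that scale 31 of all genes were higher and 43 lower, so the 30 calls describe a rise that most genes shared. The number of calls also rested on having both antibody libraries: with RBFOX2-INSCRIBE replicate 1 left out, and likewise with replicate 2 left out, 0 members and 0 genes passed.

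Among the cell-cycle cyclins, 4 of 7 tested genes had more edited Cs in RBFOX2-INSCRIBE than in buffer-only (57.1%, against 61.1% of all tested genes). The calls by family, here and below, are from unscaled counts and few genes. Their shares were not tested against that of all genes. CCNA2, which activates CDKs in S phase and at mitotic entry, had 125 and 124 edited Cs in RBFOX2-INSCRIBE, 46 and 101 in enzyme-only and 47 and 43 in buffer-only (log2 difference to buffer-only 1.46 ± 0.15 SE, limma adjusted p = 0.00061). CCNB1, the mitotic partner of CDK1, had 106 and 80, 48 and 79, and 29 and 41 (1.40 ± 0.23, limma adjusted p = 0.0021). Both were highest in RBFOX2-INSCRIBE, and both had 1 enzyme-only library close to it. CCNE2, a G1/S cyclin, had 77 and 67, 7 and 51, and 9 and 15 edited Cs (2.58 ± 0.31, limma adjusted p = 0.00078). CCND1, the D-type cyclin that links growth signals to CDK4 and CDK6, had 22 and 30, 3 and 18, and 6 and 6 (2.01 ± 0.45, limma adjusted p = 0.0077). CCNB2, with 21 and 6, 18 and 27, and 6 and 13, showed groups that overlapped.

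The cyclins of transcription and splicing, and the other cyclins, gave 3 of 4 and 4 of 5 calls against buffer-only. These shares were 75% and 80%, where 61.1% of all tested genes were called higher. CCNT2, a cyclin subunit of P-TEFb, the kinase that releases paused RNA polymerase II, had 82 and 102 edited Cs in RBFOX2-INSCRIBE, 25 and 49 in enzyme-only, and 21 and 11 in buffer-only (log2 difference 2.55 ± 0.39, limma adjusted p = 0.0018). CCNL2, a cyclin of splicing factor speckles, had 23 and 29, 6 and 16, and 7 and 4 (2.18 ± 0.51, limma adjusted p = 0.0091). Its relative CCNL1 had 51 and 46, 18 and 40, and 22 and 23 (1.09 ± 0.29, limma adjusted p = 0.015). In all 3 genes, both RBFOX2-INSCRIBE libraries exceeded every control library. CCNG2, an atypical cyclin linked to cell-cycle arrest, had 55 and 91, 27 and 46, and 14 and 11, and CCNI, another atypical cyclin, had 86 and 107, 55 and 52, and 47 and 24. CCNG1, a p53 target, had 64 and 76, 15 and 62, and 16 and 21. CCNK, the cyclin of CDK12 and CDK13, did not pass, with 11 and 13 edited Cs in RBFOX2-INSCRIBE inside the range of its controls.

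Both tested cell-cycle CDKs passed against buffer-only, where 61.1% of all tested genes were called higher. CDK1, the kinase of mitotic entry, had 126 and 90 edited Cs in RBFOX2-INSCRIBE, 47 and 83 in enzyme-only, and 20 and 21 in buffer-only (log2 difference 2.35 ± 0.20, limma adjusted p = 0.00054). Per C it was the most edited of the genes named here: 32.9% ± 7.76 (SD, n = 2) of its 328 exonic Cs were edited in RBFOX2-INSCRIBE, against 6.25% ± 0.216 in buffer-only. CDK4, a G1 kinase, had 20 and 22, 18 and 15, and 11 and 9 edited Cs (1.04 ± 0.31, limma adjusted p = 0.023). CDK6 had 0 and 4 in RBFOX2-INSCRIBE and 0 in every control library, and was not tested. Of the transcription CDKs 3 of 4 passed, CDK12, CDK13 and CDK8. CDK12, which phosphorylates RNA polymerase II during elongation, had 85 and 85, 26 and 60, and 23 and 22 edited Cs. CDK17, a kinase of the less studied PCTAIRE branch, had 64 and 67, 20 and 38, and 9 and 3 (3.52 ± 0.50, limma adjusted p = 0.0014).

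Among the CDK inhibitors and other CDKN-named genes, 1 of 5 passed against buffer-only (20%, against 61.1% of all tested genes). This was CDKN1B, which encodes p27, with 62 and 67 edited Cs in RBFOX2-INSCRIBE, 6 and 38 in enzyme-only, and 11 and 18 in buffer-only (log2 difference 2.15 ± 0.29, limma adjusted p = 0.0011). CDKN1A, which encodes the related p21, had 7 and 5, 4 and 5, and 9 and 3, so its groups overlapped. CDKN2A, which encodes p16 and p14ARF, had 9 and 9, 21 and 5, and 7 and 3. The CDK-associated proteins gave 1 of 3 calls, in CDK5RAP3 with 15 and 15, 7 and 10, and 6 and 7.

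Of the CDC genes that act in the anaphase-promoting complex, 3 of 4 tested passed against buffer-only (75%, against 61.1% of all genes). CDC27, a core subunit, had 160 and 190 edited Cs in RBFOX2-INSCRIBE, 44 and 110 in enzyme-only and 36 and 41 in buffer-only (log2 difference 2.17 ± 0.21, limma adjusted p = 0.00056). The subunits CDC23 and CDC16 also passed, with 66 and 77, 19 and 49, and 16 and 22 edited Cs in CDC23. CDC20, the activator that recognises substrates for the complex, did not: it had 31 and 10, 22 and 13, and 13 and 18, with no separation between groups. Both tested phosphatases passed, CDC14A with 15 and 19, 6 and 8, and 3 and 2 edited Cs and CDC25A with 15 and 18, 3 and 11, and 3 and 5.

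Of the replication genes CDC6 and CDC7 passed and CDC45 did not, and 4 of 5 other CDC genes passed. Of all tested genes, 61.1% were called higher. CDC7, the kinase that fires replication origins, had 50 and 59, 23 and 40, and 15 and 10 edited Cs. CDC73, a subunit of the PAF1 elongation complex despite its CDC name, had 174 and 177 edited Cs, 37 and 103, and 37 and 38 (log2 difference 2.21 ± 0.20, limma adjusted p = 0.00054). CDC37L1, a relative of the HSP90 co-chaperone CDC37, had 18 and 20, 2 and 23, and 0 and 2 (4.12 ± 0.80, limma adjusted p = 0.0044). Its log2 difference was the largest of the members, but it was 3.53 with a pseudocount of 1 and 5.38 with 0.1, since buffer-only was close to 0. CDC37 itself had 17 and 11, 19 and 12, and 13 and 17, with no separation.

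**Figure D2:**
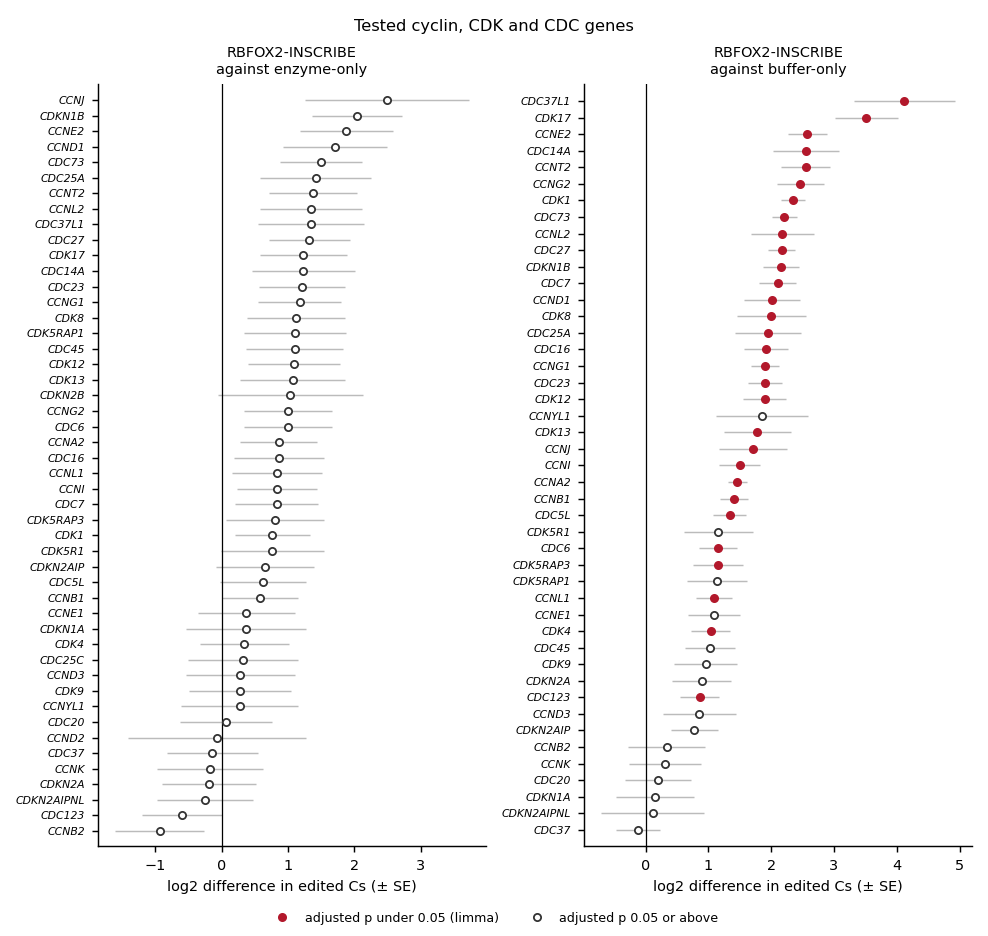
log2 difference in edited Cs per gene (x axis, points with SE from limma) for the tested members in RBFOX2-INSCRIBE against enzyme-only (left, 48 genes) and against buffer-only (right, 45 genes). Filled points passed an adjusted p of 0.05, which 30 genes did on the right and 0 on the left; the values are from unscaled counts.

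Against enzyme-only, 0 of 48 tested members passed (limma, adjusted p under 0.05), where 0.118% of all 5088 tested genes were called higher and 0% lower. At an unadjusted p under 0.05, 6 members were higher and 0 lower (16.4% and 0.609% of all genes). In 27 members the 2 antibody libraries were each above the 2 enzyme-only libraries (56.25%, against 51.8% of all genes), and in 1, CDC123, both lay below (3.58% of all genes). The median log2 difference was 0.85 in members and in all genes, and 0.03 and 0.02 after scaling to the same total. The largest differences were in CCNJ (2.49 ± 1.23 SE), CDKN1B (2.04 ± 0.68), CCNE2 (1.88 ± 0.70), CCND1 (1.70 ± 0.78) and CDC73 (1.498 ± 0.62). The most negative were in CCNB2 (−0.93 ± 0.67) and CDC123 (−0.60 ± 0.60).

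These values depended on which enzyme-only library was kept. With enzyme-only replicate 3 left out, 16 members and 1696 genes passed, and with replicate 2 left out, 0 and 0. CCNJ, an atypical cyclin, illustrates this: its edited Cs numbered 12 and 19 with the antibody, 0 and 15 in enzyme-only, and its log2 difference was 0.01 with replicate 2 of that control left out and 4.96 with replicate 3 left out. For CDKN1B, the corresponding values were 0.75 and 3.32, the same direction both times.

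Enzyme-only exceeded buffer-only in 0 of 46 tested members (limma, adjusted p under 0.05), where 0.547% of all 4208 genes were called higher. At an unadjusted p under 0.05, 7 members were higher and 0 lower (14.9% and 0.285% of all genes), and in 15 both enzyme-only libraries lay above both buffer-only libraries (44.4% of all genes). The median log2 difference was 0.69 in members and in all genes, and 0.04 and 0.02 after scaling. The largest were in CDC37L1 (2.78 ± 0.96 SE) and CDK17 (2.28 ± 0.71).

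Below the minimum mean of 5 edited Cs lay 13 members in the comparison with enzyme-only and 16 in that with buffer-only. CCNQ, CDK2AP1, CDKN2C and CDKN3 had at most 3 edited Cs, all in enzyme-only replicate 2. The other 9 genes below the minimum in both comparisons had at most 10 edited Cs in any library, CDK7, the kinase of TFIIH, having 10 and 0 in RBFOX2-INSCRIBE. In CCND2, CDC25C and CDKN2B, RBFOX2-INSCRIBE was tested against enzyme-only but not against buffer-only.

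The share of edits in the 3′ UTR of cyclin, CDK and CDC mRNAs was highest with the antibody. This region held 56.1% and 61.3% of edited Cs in RBFOX2-INSCRIBE, 46.9% and 52.0% in enzyme-only, and 37.7% and 38.7% in buffer-only, and the 3 groups did not overlap (exact permutation p = 0.33 for each pair). The coding sequence held 37.4% and 32.6%, 45.2% and 40.8%, and 52.3% and 50.3%, the reverse order. Shares in the 3′ UTR of the other protein-coding genes had the same order, at 59.9% and 60.9%, 50.2% and 54.4%, and 44.4% and 43.9%.

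Relative to the Cs available in each region of the most edited protein-coding isoform of each gene, 6.09% and 6.66% of 3′ UTR Cs were edited in RBFOX2-INSCRIBE, 2.02% and 4.20% in enzyme-only, and 1.29% and 1.22% in buffer-only. In the coding sequence the values were 3.55% and 3.09%, 1.70% and 2.87%, and 1.58% and 1.42%. The group mean in RBFOX2-INSCRIBE was thus 5.07 times that in buffer-only in the 3′ UTR, 2.22 times in the coding sequence and 1.37 times in the 5′ UTR.

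**Figure D3:**
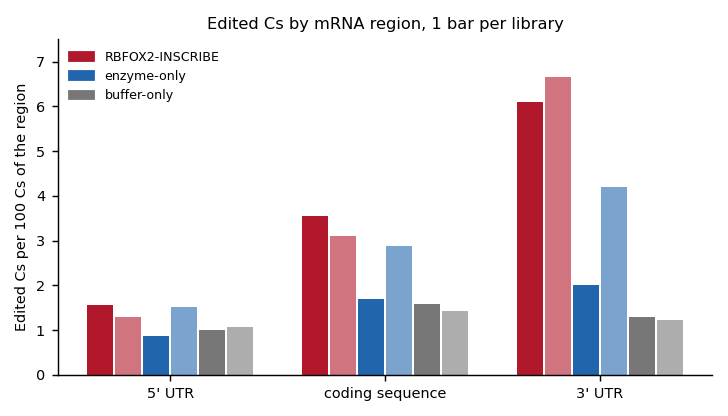
Edited Cs per 100 Cs (y axis) in the 5′ UTR, coding sequence and 3′ UTR of cyclin, CDK and CDC mRNAs, 1 bar per library, with the darker bar for the lower-numbered replicate. The bars of RBFOX2-INSCRIBE reach 6.09 and 6.66 in the 3′ UTR, above the highest control bar of 4.20.

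UGCAUG lay near edited Cs more often than near the other Cs of the same exons in RBFOX2-INSCRIBE. Of the edited Cs, 4.53% and 4.68% had the hexamer within 50 nt on the same strand in RBFOX2-INSCRIBE, 2.52% and 3.26% in enzyme-only, and 3.003% and 3.06% in buffer-only. Divided by the share expected from all Cs of the same exons, this was 1.69 and 1.62, 1.23 and 1.42, and 1.05 and 1.03. RBFOX2-INSCRIBE was above both controls (exact permutation p = 0.33), and enzyme-only lay between. In the other protein-coding genes the ratio was 1.44 and 1.47, 0.99 and 1.01, and 1.02 and 1.00. Enzyme-only thus stood above 1 in the cyclin, CDK and CDC genes and at 1 elsewhere. In the cyclin, CDK and CDC genes those enzyme-only ratios rest on 21 and 51 sites with the hexamer. The difference between the gene groups was not tested.

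The excess was carried by the 3′ UTR. There the ratio was 2.06 and 2.02 in RBFOX2-INSCRIBE (72 and 78 sites with the hexamer), 1.71 and 1.60 in enzyme-only (16 and 35 sites), and 1.14 and 0.89 in buffer-only (8 and 6 sites). In the coding sequence it was 1.11 and 0.90, 0.62 and 1.19, and 1.11 and 1.11, with no separation between groups. At sites with an edited fraction of at least 0.02, the ratio was 2.72 and 2.18 in RBFOX2-INSCRIBE, 0.68 and 0.93 in enzyme-only, and 0.66 and 0.49 in buffer-only. These rest on few sites with the hexamer, 23 of 281 and 22 of 326 in RBFOX2-INSCRIBE. In the controls they were 2 of 149 and 5 of 234 in enzyme-only, and 2 of 118 and 2 of 92 in buffer-only. On those counts the enzyme-only ratio changed from above to below 1, which was not tested. A single edited read passes that cut where few reads cover the position. In the other protein-coding genes, RBFOX2-INSCRIBE ratios were 1.59 and 1.64 in the 3′ UTR and 1.91 and 2.09 at that fraction. Their enzyme-only ratios were 1.01 and 1.03, and 0.99 and 1.08. Their buffer-only ratios were 1.06 and 1.07, and 0.98 and 1.06.

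**Figure D4:**
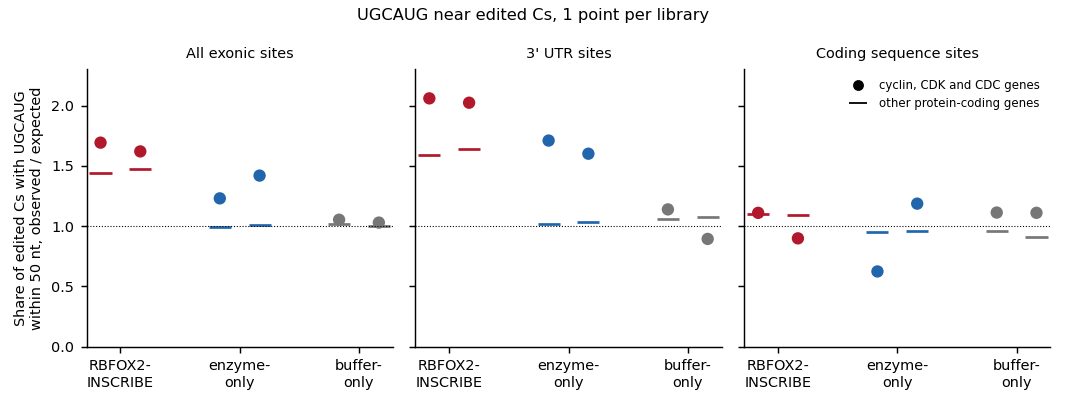
Observed over expected share of edited Cs with UGCAUG within 50 nt (y axis), 1 point per library, for cyclin, CDK and CDC genes (circles) and other protein-coding genes (bars), for all exonic sites, 3′ UTR sites and coding sequence sites. The dotted line marks 1; the circles of RBFOX2-INSCRIBE lie at 1.69 and 1.62 for all sites and at 2.06 and 2.02 in the 3′ UTR.

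Exons of 29 of the 61 genes held 58 UGCAUG elements, 34 in 3′ UTRs, 20 in coding sequence and 4 in isoforms without a coding sequence. An element was placed by an isoform with a coding sequence where one held it; the CCNL2 elements counted in 3′ UTRs lie in that of its nonsense-mediated decay isoform, and also in the retained-intron isoform named with the sequences above. Of these, 16 (27.6%) had more edited Cs within 50 nt in both RBFOX2-INSCRIBE libraries than in any control library, where 13.8% of the 8654 elements in all listed protein-coding genes did, and 0 had fewer in both than in every control (0.0693%). Among elements with an edit in any library the shares were 42.1% of 38 and 25.9% of 4620. The shares were not tested against each other, and they move with how much of each gene was edited. Of the 16 elements, 13 lay in 3′ UTRs. CDK6 held 7 elements, all in its 3′ UTR, with 0 edited Cs within 50 nt in every library. Its exons had at most 4 edited Cs in any library.

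Around the 3′ UTR element of CDC27, 10 and 11 of its 15 nearby exonic Cs were edited in RBFOX2-INSCRIBE, 2 and 5 in enzyme-only, and 2 and 2 in buffer-only. Around a coding element of the same gene, beside the CDC27 sequence printed above, the counts were 4 and 4, 0 and 0, and 1 and 0. In CCNT2, the 3′ UTR element had 6 and 6, 0 and 2, and 0 and 0 edited Cs nearby. The elements of CDC5L and CCND1 printed above had 4 and 1, and 1 and 5, in RBFOX2-INSCRIBE and 0 in every control library. The CDC73 3′ UTR element had 7 and 7 in RBFOX2-INSCRIBE, but also 6 in enzyme-only replicate 3. Its coding element had 1 and 2 in RBFOX2-INSCRIBE, 0 and 0 in enzyme-only, and 4 and 2 in buffer-only.

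**Figure D5:**
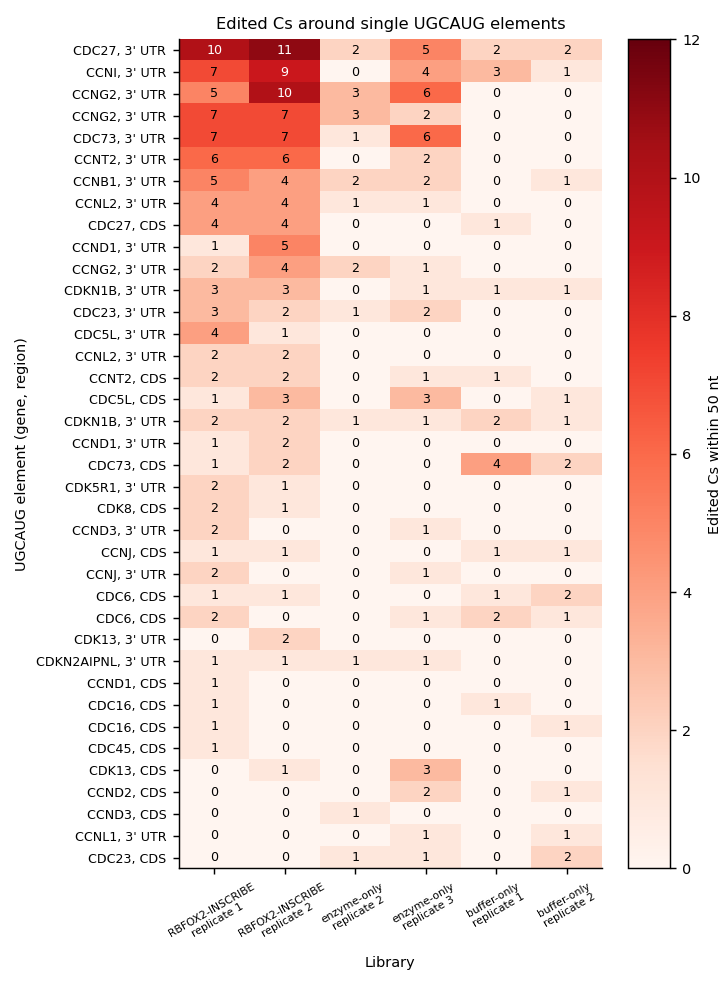
Edited Cs within 50 nt (colour and number) of each of the 38 UGCAUG elements with an edit in any library, by element (rows, gene and region) and library (columns). The CDC27 3′ UTR element has 10 and 11 edited Cs in RBFOX2-INSCRIBE and at most 5 in any control library; most coding elements have few edits in any library.

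Few sites recurred between libraries. Of 5929 distinct edited Cs in these genes, 4422 (74.6%) were listed in a single library and 0 in all 6; the methods state that edits shared by all samples were removed as likely variants. The RBFOX2-INSCRIBE libraries shared 617 sites, 29.4% of the smaller library, against 130 (15.6%) for enzyme-only and 31 (5%) for buffer-only. Larger lists share more sites by their size alone. In both RBFOX2-INSCRIBE libraries and in no other were 341 sites of 32 genes, of which 69.8% lay in 3′ UTRs and 24 had UGCAUG within 50 nt (7.04%, against 3.12% expected from the same exons, a ratio of 2.26). The other protein-coding genes gave values near these, with 76.9% of sites in a single library, 25.04% shared between the RBFOX2-INSCRIBE libraries, and, among the sites of both and no other, 73.4% in 3′ UTRs and 8.03% with the hexamer against 3.58% expected, a ratio of 2.24. The difference was not tested. Of the 58 sites listed in both enzyme-only libraries alone and the 17 in both buffer-only libraries alone, 0 had the hexamer, where 2.22% and 0.868% were expected. These sets are too small to show a lack of it. In the other protein-coding genes, 1.76% of 4485 such enzyme-only sites had it, against 2.17% expected. For buffer-only it was 1.94% of 2012 sites, against 2.03% expected.

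By gene, these antibody-only recurrent sites numbered 39 in CDC27, 36 in CDC73, 27 in CDK1, 23 in CCNA2, 22 in CCNE2 and 20 in CCNT2. In CDC27, 6 of the 39 lay near UGCAUG. Exons of CDK1, CCNA2 and CCNE2 hold no UGCAUG, so 0 of their sites lay near an exonic element; these letters are only absent from the listed exons. The motif-bearing sites of CDKN1B included a C 2 nt 5′ of the hexamer in its 3′ UTR, edited in 1.63% and 0.727% of reads.

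At the level of isoforms, 0 of 51 tested isoforms of these genes passed against enzyme-only (7 at an unadjusted p under 0.05, where 15.6% of all isoforms were higher; 0.0525% were called higher by limma) and 30 of 47 passed against buffer-only (63.8%, against 60% of all isoforms). Against buffer-only in enzyme-only cells, the count was 0 of 47 (7 at an unadjusted p under 0.05, where 14.9% of all isoforms were higher; 0.812% were called higher by limma). Of the genes with 2 tested isoforms, CDK13 differed most between them: the log2 difference to enzyme-only was 1.65 ± 1.04 for ENST00000181839, with 18 and 33 edited Cs in RBFOX2-INSCRIBE, and 0.57 ± 0.94 for ENST00000340829, with 13 and 17. CCNT2 had 1.36 ± 0.67 and 1.66 ± 0.81, and CDKN2AIP, a CDKN2A-interacting protein, 1.26 ± 1.24 and 0.59 ± 0.76. Within each gene the isoforms differed by less than the sum of their SEs.

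The L-type cyclins were chosen here after their values were seen. In CCNL1 in every library, and in CCNL2 in the RBFOX2-INSCRIBE libraries, most edited Cs lay on an isoform annotated as retaining an intron. ENST00000474539 of CCNL1 had 46 and 40 edited Cs in RBFOX2-INSCRIBE, 17 and 37 in enzyme-only, and 15 and 18 in buffer-only, whereas the protein-coding ENST00000295926 had 5 and 6, 1 and 3, and 7 and 5. In CCNL2, the retained-intron ENST00000418865 had 14 and 20, 5 and 5, and 5 and 2, and the protein-coding ENST00000400809 had 5 and 6, 1 and 6, and 2 and 2. A further CCNL2 isoform, ENST00000481223, annotated as a target of nonsense-mediated decay, had 5 and 3, 0 and 5, and 0 and 0 edited Cs and holds 2 UGCAUG elements. The retained-intron isoforms of CCNL1 and CCNL2 hold 3 UGCAUG elements each, against 1 and 0 in the protein-coding isoforms. Isoform abundance was not measured here, so the counts do not compare editing per molecule.

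Of 65 other genes of the cell cycle counted as a list (retinoblastoma and E2F proteins, origin and MCM subunits, mitotic kinases, ubiquitin ligase parts and the like), 28 of 47 tested had more edited Cs in RBFOX2-INSCRIBE than in buffer-only (59.6%, limma adjusted p under 0.05, where 61.1% of all genes did) and 0 fewer, with a median log2 difference of 1.15 against 1.54 in all genes. Against enzyme-only 0 of 50 passed (4 higher and 1 lower at an unadjusted p under 0.05, where 16.4% and 0.609% of all genes were), with a median of 0.73 against 0.85 in all genes. Both RBFOX2-INSCRIBE libraries were above both of enzyme-only in 16 of these 50 (32%), where 51.8% of all genes were. RB1, the tumour suppressor that CDKs inactivate, had 138 and 140 edited Cs in RBFOX2-INSCRIBE, 39 and 83 in enzyme-only, and 26 and 20 in buffer-only. SKP2, the ubiquitin ligase subunit that targets p27, had 85 and 89, 20 and 39, and 23 and 14. CDT1, a licensing factor, had 6 and 4, 14 and 14, and 5 and 6, its highest values being in enzyme-only.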

How the data were processed

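The authors made circular consensus reads, aligned them to hg38 with pbmm2 and then excluded reads whose quality score was under 20. They assigned reads uniquely to isoforms with IsoQuant and called edits from C to U with scripts of their own. Edits shared by all samples and dbSNP positions were removed. Deposited values are the edited fraction of reads (0 to 1) per isoform and position. Here isoforms were named through GENCODE 44 (99.74% to 99.76% of listed pairs matched; the annotation used by the authors is not given in the sources used here). An edit counted on the isoform strand (92.0% to 96.9% of pairs) and in its exons, each position 1 time per library. Where several isoforms of a gene listed a position, the highest fraction stood for it. limma 3.58.1 (R 4.3.3; trend and robust settings, Benjamini-Hochberg over all genes or isoforms) was run on log2((edited Cs + 0.5) / exonic Cs) for features that averaged 5 or more edited Cs, and tested on simulated data. Other values used two-sided exact permutation tests in Python 3.11.15 (pandas 2.3.3, numpy 2.4.6, scipy 1.17.1, matplotlib 3.10.9). Expected UGCAUG shares came from all Cs of the same exon. In the simulated data, limma recovered 0.5% of 2-fold and 43% of 4-fold changes for RBFOX2-INSCRIBE against enzyme-only. Against buffer-only the values were 0% and 56%, and for enzyme-only against buffer-only 0% and 15.5%. Changes of 2-fold were thus rarely called in the simulated data. The measured fits differed: against buffer-only, CDK4 passed with a log2 difference of 1.04. The simulation left out the rise shared by most genes and the difference in total between the enzyme-only libraries. Its shares recovered therefore do not carry over to the measured comparisons.

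Members and lists were chosen with earlier results of these data known. Named genes were those called or with the largest or smallest differences, the most edited overall and per role list, and those with recurrent sites near UGCAUG. Alternatives covered the pseudocount, the minimum, scaling, groups in the fit, a replicate block, strand, edited fraction, motif window and background, region, and leaving out each library.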

Additional observations from a re-analysis of the deposited data

How the results depend on the processing

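Depth is unknown, each group has 2 libraries, and the enzyme-only libraries differ in their totals; a fit that leaves 1 library in a group assumes that it varies like the other group. Labels do not say that a number marks a shared batch, and they number the enzyme-only libraries in 2 ways, so pairing was not assumed. The members with the largest and smallest differences kept their direction under the alternatives run other than leaving out a library. The 10 largest called against buffer-only lost their call after scaling and with either RBFOX2-INSCRIBE library left out, and CCNT2 also at a fraction of at least 0.02. Without a library, CDC37L1 against enzyme-only ranged from −0.27 to 2.96, CCNK from −1.29 to 0.94, CDKN2A from −1.18 to 0.79 and CDKN2AIPNL from −1.04 to 0.55.

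Genes called against enzyme-only (6) were 30 and 0 with pseudocounts of 1 and 0.1, 0, 22 and 0 with a minimum of 1, of 10 and none, 0 after scaling, 1 with all 3 groups in the fit, 28 with a replicate block, 1 with both strands, 0 at a fraction of at least 0.02, and 0 to 1696 without a library (members, 0 to 16). Isoforms called (3) were 60, 0, 0, 33 and 1, then 0 after scaling, 68 with the replicate block, 0 at 0.02, and 0 to 1871 without a library (members, 0 to 15); their members' median was 0.00679 after scaling.

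Against buffer-only, genes called (2937) were 74 after scaling, 639 at 0.02 and 0 to 2321 without a library; members called (30) were 0, 6 and 0 to 23, and their median was −0.0522 after scaling. Isoforms called (3221) were 107, 599 and 324 to 2436, those of members (30) 0, 5 and 4 to 26, with medians of −0.0668 and 2.00. With the replicate block, 29 members passed at both levels.

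Enzyme-only against buffer-only, genes called (23) were 35 with a pseudocount of 0.1, 8 and 5 with minimums of 1 and 10, 0 after scaling, 64 with all 3 groups (1 member), 8 with the replicate block, 0 at 0.02 and 0 to 1 without a library. Isoforms called (37) were 24 with a pseudocount of 1, 6 and 8 with those minimums, 0, 82 (2 members), 12, 0 and 0 to 3; their members' median was −0.0134 after scaling and 0.30 to 1.39 without a library.

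The UGCAUG ratio in RBFOX2-INSCRIBE (1.66) was 1.87, 1.42 and 1.21 with windows of 25, 100 and 200 nt, 1.95 against Cs of the whole isoform, 2.45 at 0.02, 2.04 in 3′ UTRs, 1.00 in coding sequence and 1.58 without CDC27. In enzyme-only (1.32) it was 1.05 at 200 nt, 0.80 at 0.02, 1.65 in 3′ UTRs and 0.91 in coding sequence. In buffer-only (1.04) it was 1.18, 0.98 and 0.93, then 1.35, 0.58, 1.02, 1.11 and 0.97, and 1.07 without CDC73. At 0.02, 5′ UTR shares became 5.92% in enzyme-only and 7.26% in buffer-only, coding shares 35.1% and 45.04%, and the buffer-only 3′ UTR share 46.0%. The ratio of edited Cs to buffer-only was 2.89 at 0.02, and that to enzyme-only 1.35 to 2.53 without a library.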
